A study of Mus musculus with 7 samples.

Results

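Kcnc2, Fam78b, Gadl1, Phactr1, Nexmif and Mvp are 6 genes that were chosen on their read counts in mouse skin tumours. The choice took genes near the floor in Ivl:BRAFV600E tumours (Mvp at a moderate level) and even across Ivl:BRAFV600E-SOX2LSL tumours, so the difference between genotypes and the evenness are descriptions here and carry no test. They are 6 of 55423 rows of the count table and 6 of the 24433 genes that were tested, and all 6 passed the filter on low counts.

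Bulk RNA was sequenced after depletion of ribosomal RNA from skin tumours labelled as cutaneous squamous cell carcinoma. In every mouse a tamoxifen-inducible Cre recombinase under the involucrin promoter (Ivl-CreERT2) turned on 1 BRAFV600E allele in the IVL+ population after topical tamoxifen, at 7 to 10 weeks of age by the labels (the methods of the study give another range), and tumours were collected at clinical endpoint. The 3 Ivl:BRAFV600E tumours came from 2 females and 1 male, and both females also carried a Rosa26 LSL-tdRFP reporter allele. The 3 Ivl:BRAFV600E-SOX2LSL tumours came from 1 female and 2 males that carried 1 Rosa26 allele with a stop cassette before SOX2-IRES-eGFP, which Cre removes. Each Ivl:BRAFV600E-SOX2LSL tumour was collected sooner after induction than any Ivl:BRAFV600E tumour, so genotype and time since induction cannot be told apart. Libraries held 23565432 to 31152826 counts on genes, and the floor of 3 reads corresponded to 0.0839 to 0.143 CPM, where CPM is counts per 1 M reads after TMM scaling. In bulk tissue, more cells of a type and more RNA per cell cannot be told apart.

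SOX2 is a transcription factor of the SRY family that keeps neural and epithelial progenitors undifferentiated and takes part in hair follicle development. The 6 genes belong to unrelated families. Kcnc2 and Nexmif are best known from neurons, Gadl1 from muscle, kidney and olfactory bulb, and Mvp is expressed in most tissues.

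Sox2 and EGFP reads followed the genotype labels. Reads on Sox2 gave 0.716, 0.508 and 0.238 CPM in the Ivl:BRAFV600E tumours and 182, 155 and 158 CPM in the Ivl:BRAFV600E-SOX2LSL tumours. EGFP, the reporter on the same transcript, had 0 reads in each Ivl:BRAFV600E tumour and 139, 110 and 113 CPM in the Ivl:BRAFV600E-SOX2LSL tumours. Both were highest in Ivl:BRAFV600E-SOX2LSL tumour 1, and counts on Sox2 do not separate the Rosa26 allele from the endogenous gene.

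Kcnc2 encodes Kv3.2, a voltage-gated potassium channel subunit that lets fast-spiking neurons repolarise quickly. The gene (ENSMUSG00000035681) lies on the plus strand at chr10:112271121-112467024 (GRCm38, GENCODE M21). The Ivl:BRAFV600E tumours held 3, 0 and 2 reads (0.102, 0 and 0.0950 CPM), none above the floor. The Ivl:BRAFV600E-SOX2LSL tumours held 450, 386 and 326 reads, or 12.6, 12.5 and 11.8 CPM. The groups were far apart and the Ivl:BRAFV600E-SOX2LSL tumours were nearly level with each other. Their mean of 12.3 ± 0.448 CPM (SD, n = 3) was at least 86.2-fold higher than the floor of 3 reads in the shallowest Ivl:BRAFV600E library.

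Gadl1 encodes an enzyme that decarboxylates aspartate to beta-alanine and can act on cysteine sulfinic acid, a precursor of taurine. It lies on the plus strand at chr9:115909455-116076176 (ENSMUSG00000056880). There were 1, 0 and 1 reads in the Ivl:BRAFV600E tumours, again at or under the floor. The Ivl:BRAFV600E-SOX2LSL tumours had 188, 181 and 126 reads (5.26, 5.86 and 4.55 CPM). Their mean of 5.22 ± 0.657 CPM (SD, n = 3) was at least 36.7-fold higher than the floor. Gadl1 was thus the lowest of the 6 genes in CPM, with tumour 3 below the other two. Its exons share 162 bases, 4.09% of its exon length, with the pseudogene Gm9385 on the other strand, and whether counting used the strand is not stated.

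Phactr1 encodes a regulator of protein phosphatase 1 that also binds actin monomers. The gene (ENSMUSG00000054728) spans chr13:42680623-43138526 on the plus strand. It had 15, 10 and 11 reads in the Ivl:BRAFV600E tumours (0.512, 0.462 and 0.523 CPM), above the floor in each. In the Ivl:BRAFV600E-SOX2LSL tumours it had 260, 326 and 174 reads (7.27, 10.6 and 6.28 CPM). Tumour 2 stood highest and tumour 3 lowest, and the lowest was 12.0-fold above the highest Ivl:BRAFV600E tumour. The log2 fold change was 3.998 ± 0.30 (SE).

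Nexmif is an X-linked gene for a neuronal protein needed for neurite extension and migration, and its loss causes intellectual disability with epilepsy. It lies on the minus strand at chrX:104077434-104201185 (ENSMUSG00000046449). The Ivl:BRAFV600E tumours had 7, 5 and 7 reads, or 0.239, 0.231 and 0.333 CPM. The Ivl:BRAFV600E-SOX2LSL tumours had 506, 189 and 288 reads, or 14.2, 6.12 and 10.4 CPM. These 3 tumours were not even, since tumour 1 was 2.31-fold above tumour 2. The female, tumour 3, lay between the males. The log2 fold change was 5.24 ± 0.42 (SE), and the lowest Ivl:BRAFV600E-SOX2LSL tumour was 18.4-fold above the highest Ivl:BRAFV600E tumour.

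Mvp encodes the major vault protein, which forms the shell of the vault, a large cytoplasmic ribonucleoprotein particle. It lies on the minus strand at chr7:126986860-127014621 (ENSMUSG00000030681). Mvp was well expressed in both genotypes, with 36.1, 35.6 and 41.7 CPM in the Ivl:BRAFV600E tumours. The Ivl:BRAFV600E-SOX2LSL tumours had 116, 114 and 113 CPM from 4131, 3513 and 3131 reads. The means of 37.8 ± 3.36 and 114 ± 1.29 CPM (SD, n = 3) gave a log2 fold change of 1.59 ± 0.12 (SE), a 3.02-fold difference of means. Mvp thus started from a moderate level and not from near 0. It shares 346 exon bases, 4.54% of its exon length, with Pagr1b on the same strand, so a few of its reads could belong to either gene.

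Fam78b encodes a protein of poorly described function. The gene (ENSMUSG00000060568) lies on the plus strand at chr1:167001417-167091302. It had 27, 17 and 9 reads in the Ivl:BRAFV600E tumours (0.921, 0.785 and 0.428 CPM), the highest mean of the 5 genes near the floor, although Phactr1 was above it in tumour 3. The Ivl:BRAFV600E-SOX2LSL tumours had 490, 467 and 380 reads (13.7, 15.1 and 13.7 CPM). The groups did not overlap, with 14.9-fold between the nearest tumours and a log2 fold change of 4.29 ± 0.30 (SE).

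**Figure D1:**
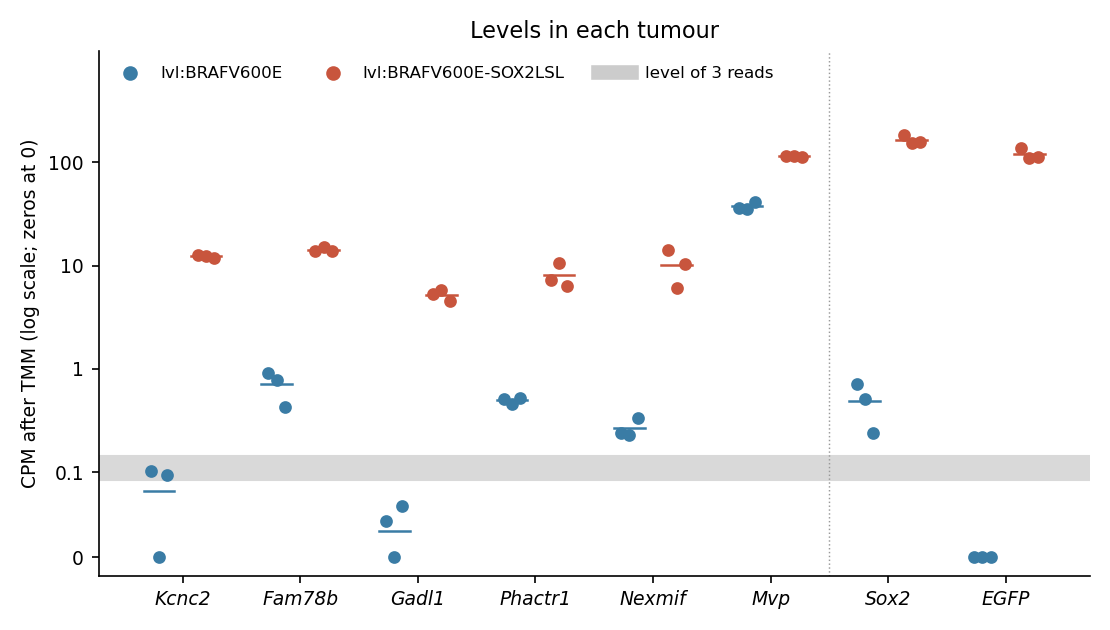
CPM after TMM scaling (log scale, zeros drawn at the mark 0) of the 6 genes, Sox2 and EGFP in each of 3 Ivl:BRAFV600E tumours (blue) and 3 Ivl:BRAFV600E-SOX2LSL tumours (red). Short lines are group means and the grey band is the level of 3 reads over the 6 libraries, 0.0839 to 0.143 CPM. Kcnc2 and Gadl1 reach no more than 0.102 CPM in the blue tumours, while Mvp starts from 37.8 CPM.

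All 6 genes lacked overlap between the groups and were higher in the Ivl:BRAFV600E-SOX2LSL tumours. Over all tested genes, 18.2% showed this pattern. In the fit of all genes by edgeR's quasi-likelihood test with Benjamini-Hochberg adjustment, 3.90% of genes passed an adjusted p of 0.05 in either direction and 2.39% passed it as higher in Ivl:BRAFV600E-SOX2LSL tumours. Because the genes were chosen on this comparison, nothing is read from these counts for them.

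Per length, the level in the Ivl:BRAFV600E-SOX2LSL tumours ran from Mvp at 15.0 ± 0.169 RPKM (reads per kb of exon per 1 M reads, SD, n = 3) down to Phactr1 at 0.836 ± 0.233 RPKM. Between them came Fam78b at 2.24 ± 0.129 RPKM, Kcnc2 at 1.72 ± 0.0628 RPKM, Gadl1 at 1.32 ± 0.166 RPKM and Nexmif at 0.887 ± 0.349 RPKM. Tumour values of Mvp, Fam78b, Kcnc2 and Gadl1 did not overlap between neighbours in that order. Nexmif overlapped with both Gadl1 and Phactr1. Sox2 itself stood at 80.2 ± 7.22 RPKM, above all 6.

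The genes differed among themselves in how even they were. The spread within the Ivl:BRAFV600E-SOX2LSL tumours, as SD in percent of the mean CPM, was 1.13% for Mvp, 3.65% for Kcnc2, 5.74% for Fam78b, 12.6% for Gadl1, 27.8% for Phactr1 and 39.3% for Nexmif. Counting error alone would give 1.68%, 5.11%, 4.76%, 7.82%, 6.31% and 5.56% in the same order. These values depend on the scaling, since with total counts the SD of log2 CPM was 0.15 for Mvp and 0.17 for Kcnc2 in place of 0.02 and 0.05. Sox2 spread by 9.01% and EGFP by 12.9%, against 1.39% and 1.62% from counting.

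The genes were chosen for an even level, so a low spread repeats the choice. Gadl1 spread about as much as EGFP. Phactr1 and Nexmif spread by more than either and were not even, which goes against the rule they were chosen by.

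**Figure D2:**
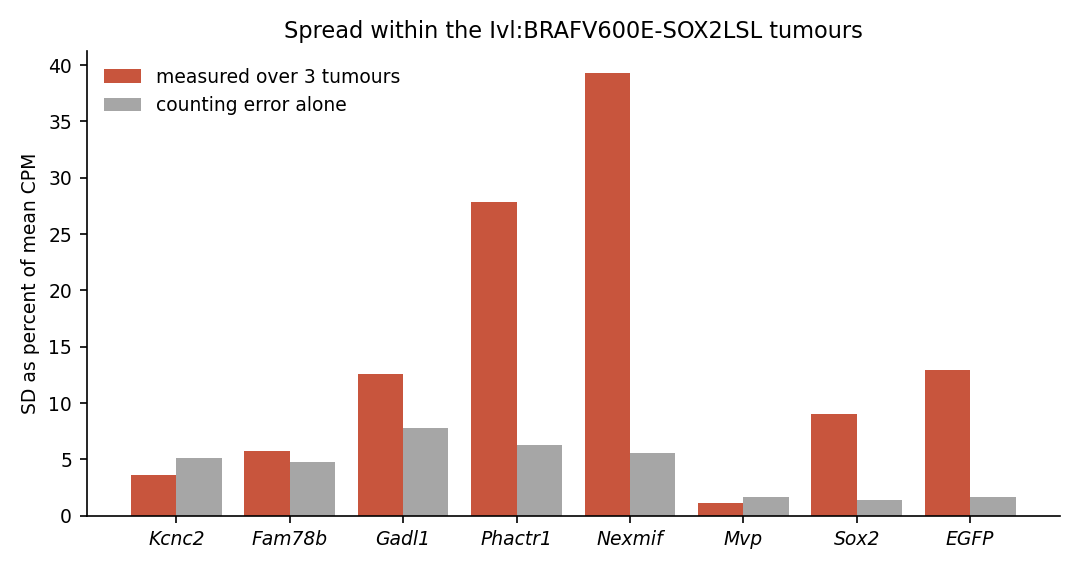
SD in percent of the mean CPM over the 3 Ivl:BRAFV600E-SOX2LSL tumours (red) and the value that counting error alone would give (grey), for the 6 genes, Sox2 and EGFP. The red bar lies below the grey bar for Mvp and Kcnc2 and reaches 27.8% for Phactr1 and 39.3% for Nexmif.

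The tumours did not keep one order across the genes. Sox2, EGFP and Nexmif were highest in tumour 1 and lowest in tumour 2. Fam78b, Gadl1 and Phactr1 were highest in tumour 2. Kcnc2 and Mvp were lowest in tumour 3, with tumours no farther apart than counting error.

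Ratios of reads within a library are free of scaling. Per 1000 reads of Sox2 there were 69.2, 80.6 and 74.6 reads of Kcnc2 and 635, 734 and 717 reads of Mvp in the Ivl:BRAFV600E-SOX2LSL tumours. The spread of these ratios was 7.68% and 7.61% of the mean, larger than that of the CPM of the same genes. The same held for Fam78b (12.9%), Gadl1 (16.2%) and Phactr1 (33.0%). Nexmif was the exception, with a ratio spread of 32.1% against 39.3% in CPM. EGFP followed Sox2 closely, at 762, 712 and 717 reads per 1000 reads of Sox2.

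The lists of markers of other cells differed in how far they varied within the Ivl:BRAFV600E-SOX2LSL tumours. The muscle, neuron and Merkel cell sums varied most widely of the sums given here, while the melanocyte sum was 17.1 to 19.9 CPM and the endothelial sum 158 to 192 CPM. Of 23 tested skeletal muscle genes, 20 rose by edgeR, and their summed level was 12.1 to 28.3 CPM in the Ivl:BRAFV600E tumours against 3631, 4044 and 946 CPM in the Ivl:BRAFV600E-SOX2LSL tumours. DESeq2 called 22 of the 23 and limma voom 6. Myh4 and Myog, which did not pass edgeR's test (adjusted p = 0.0561 and 0.138), had 0 reads in every Ivl:BRAFV600E tumour. Tumour 3, with the lowest muscle sum, had Gadl1 at 87.1% and Kcnc2 at 95.8% of the mean of the 3 tumours. Gadl1 and Phactr1 had the same order of tumours as the muscle sum, highest in tumour 2 and lowest in tumour 3. The part of muscle in their levels was not tested.

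Among neuronal markers, 1 of 11 tested genes passed edgeR's test and rose, Nefl, a neurofilament subunit. Their sum was 271 to 315 CPM in the Ivl:BRAFV600E tumours and 52.8, 242 and 177 CPM in the Ivl:BRAFV600E-SOX2LSL tumours. Nefl itself had 9.76, 2.75 and 1.55 CPM in the latter, so it did not follow the sum. Most of the sum came from Map2 and Tubb3, with mean levels of 196 and 87.5 CPM in the Ivl:BRAFV600E tumours and 86.9 and 55.3 CPM in the others. Over the list the log2 fold change was above 0 for 7 of the 11, with a median of 0.92, or 0.07 with genes at the floor set to their bound. DESeq2 called Nefl and Stmn2, and limma voom called 0 of the 11. Snap25, Syt1, Elavl3, Elavl4 and Prph did not reach 5 reads in any tumour, and Nefm and Scn9a had 0 reads in every Ivl:BRAFV600E tumour.

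Keratinocyte markers were abundant in every tumour, the cell type of the label. Their sum was 88817 to 132651 CPM in the Ivl:BRAFV600E tumours and 16890, 53191 and 49213 CPM in the Ivl:BRAFV600E-SOX2LSL tumours. None of the 9 passed edgeR's test, 5 had an unadjusted p below 0.05, DESeq2 called 3 and limma voom 0. The log2 fold change was -3.06 for Krt10 and -2.24 for Krt1, the differentiation keratins that make up most of the sum in the Ivl:BRAFV600E tumours, and above 0 for 4 of the 9. The 3 called by DESeq2 were these keratins and Dsg3, a desmosomal cadherin, which was higher at 0.69. Fibroblast, endothelial, Schwann cell, melanocyte and dermal papilla lists gave 0 of 33 tested genes by edgeR, 8 at an unadjusted p below 0.05, 5 by DESeq2 and 0 by limma voom.

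The remaining lists changed in part. Merkel cell markers rose for 2 of 7 genes, Krt20 and Piezo2, with sums of 11.5 to 13.6 CPM and 33.2 to 205 CPM, and Rab3c had 0 reads in every Ivl:BRAFV600E tumour. DESeq2 called 4 of the 7 and limma voom 0. Leukocyte markers rose for 2 of 5 genes, Ptprc and Csf1r, with sums of 28.6 to 51.7 CPM and 82.6 to 186 CPM. DESeq2 called 4 of the 5 and limma voom 0. Both sums were highest in Ivl:BRAFV600E-SOX2LSL tumour 1, and the part of these cells in the levels of the 6 genes was not tested.

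**Figure D3:**
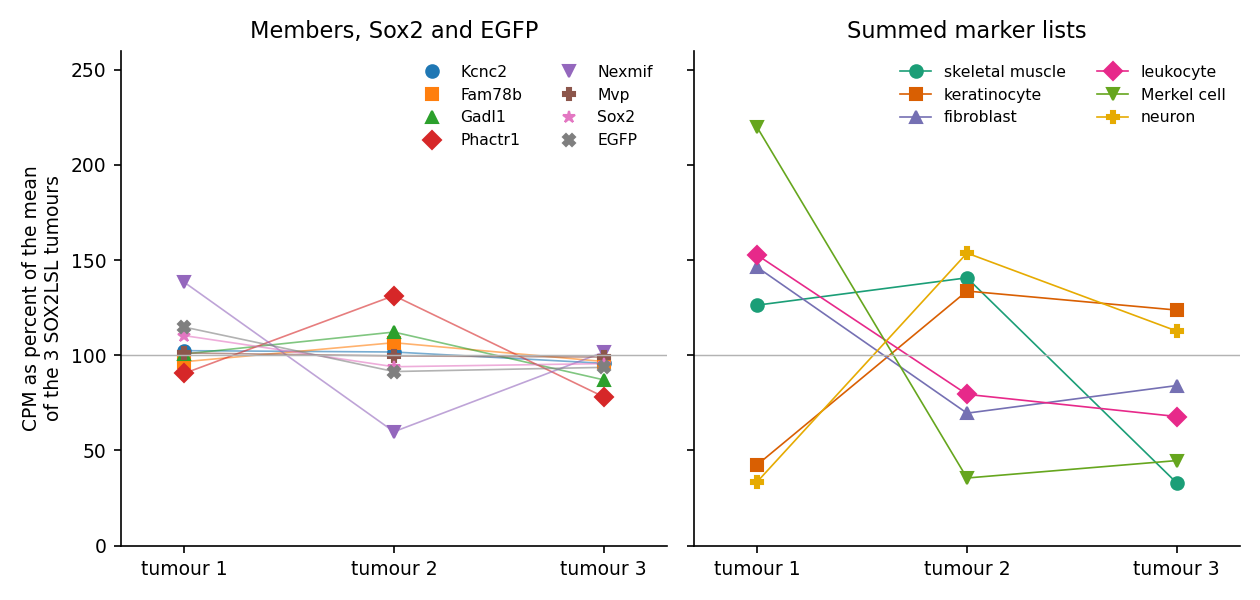
Level in each Ivl:BRAFV600E-SOX2LSL tumour as percent of the mean of the 3, for the 6 genes, Sox2 and EGFP (left) and for summed CPM of marker lists (right). Lines join the points of 1 gene or list, and tumours have no order. Kcnc2, Fam78b and Mvp stay within 95.8% to 107% of their mean. The muscle, neuron and Merkel cell sums lie farther from theirs.

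Each gene was set beside the genes of its own pathway, in lists written with earlier results of these data known. Of 103 genes in 6 lists, 88 were tested and 7 passed edgeR's test, 5 higher and 2 lower, which is 8.0% against 3.90% of all genes. The median log2 fold change was 0.42 over the 88 and 0.04 over all tested genes, or 0.39 and 0 with genes at the floor set to their bound.

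Of 32 tested voltage-gated potassium channel subunits, 2 rose and 1 fell, which is 9.4% against 3.90% of all genes. An unadjusted p below 0.05 was reached by 16 of the 32, against 25.7% of all genes tested, and DESeq2 called 7 and limma voom 3. Kcnq5, a subunit of the M-current, had 1.77, 1.52 and 1.66 CPM in the Ivl:BRAFV600E tumours and 9.37, 16.5 and 11.7 CPM in the Ivl:BRAFV600E-SOX2LSL tumours. Its log2 fold change was 2.92 ± 0.27 (SE, edgeR adjusted p = 0.00750). Kcna7, a muscle and heart subunit, rose by 2.53 ± 0.45 (SE, edgeR adjusted p = 0.0347). Kcng3, a silent modifier subunit, fell by 1.92 ± 0.38 (SE, edgeR adjusted p = 0.0429).

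Kcnc1 and Kcnc4, close relatives of Kcnc2, were named after their values were seen. Kcnc1 had 0.303 ± 0.440 CPM and 1.94 ± 0.960 CPM (SD, n = 3) in the 2 groups, and Kcnc4 4.83 ± 1.11 and 15.8 ± 11.7 CPM. Neither passed edgeR's test (adjusted p = 0.170 and 0.191). Kcnc4 had 2.43 CPM in Ivl:BRAFV600E-SOX2LSL tumour 1 against 23.8 and 21.2 CPM in the other two.

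Gadl1 stood in a pathway with 3 rises among 16 tested genes, which is 18.8% against 2.39% of all genes called higher. Cdo1, which oxidises cysteine to cysteine sulfinic acid, had 0.205, 0.231 and 0.380 CPM and then 34.8, 10.1 and 8.56 CPM, a log2 fold change of 6.04 ± 0.72 (SE, edgeR adjusted p = 0.0138). Without Ivl:BRAFV600E-SOX2LSL tumour 1 its log2 fold change was 5.10. Dpyd, which begins the breakdown of pyrimidines towards beta-alanine, had 0.171, 0.554 and 0.665 CPM and then 10.9, 11.6 and 7.91 CPM, a log2 fold change of 4.47 ± 0.48 (SE, edgeR adjusted p = 0.0108). Gad2, which makes the transmitter GABA from glutamate, had 0 reads in each Ivl:BRAFV600E tumour and 0.364, 1.43 and 0.686 CPM in the others, at least 5.79-fold above the floor (edgeR adjusted p = 0.0468).

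Csad, the usual cysteine sulfinic acid decarboxylase, was chosen after its values were seen. It stood at 12.1 and 13.5 CPM in the 2 groups with a log2 fold change of 0.16 ± 0.19 (SE, edgeR adjusted p = 0.635). Limma voom called Dpyd alone of the 16 genes, and DESeq2 called 5.

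The list of Phactr1 held no call. None of 19 tested genes of the PHACTR family, protein phosphatase 1 and the actin-SRF programme passed edgeR's test, 5 had an unadjusted p below 0.05, limma voom called 0 and DESeq2 called Phactr2 and Myh9. Actb had 4350 ± 518 and 3771 ± 293 CPM (SD, n = 3), and its log2 fold change was -0.21 ± 0.19 (SE, edgeR adjusted p = 0.537). Actg1 had -0.30 ± 0.17 (SE, edgeR adjusted p = 0.297). The paralogue Phactr4 stood at 95.6 and 108 CPM, far above Phactr1, and Phactr2 at 15.1 and 30.8 CPM (edgeR adjusted p = 0.0584). These paralogues were named after their values were seen.

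Nexmif was set beside other X-linked genes of neurodevelopmental disorders. Of 17 tested, 1 passed, and it fell. Kdm5c, a histone demethylase, had a log2 fold change of -0.25 ± 0.31 (SE, edgeR adjusted p = 0.645). Rlim, a ubiquitin ligase of X inactivation, had 0.06 ± 0.14 (SE, edgeR adjusted p = 0.814), with its sign turning to -0.042 under upper-quartile scaling.

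Mvp was compared with the other parts of the vault. Tep1, a protein shared by vaults and telomerase, had 32.1, 29.3 and 37.9 CPM and then 50.7, 51.1 and 48.2 CPM, a log2 fold change of 0.60 ± 0.13 (SE, edgeR adjusted p = 0.0564). Parp4, the vault poly(ADP-ribose) polymerase, had 25.0, 20.9 and 30.8 CPM and then 72.0, 38.9 and 46.2 CPM, a log2 fold change of 1.03 ± 0.26 (SE, edgeR adjusted p = 0.0707). Neither group pair overlapped, but neither gene passed, while DESeq2 called both and limma voom called 0. The vault RNA gene Vaultrc5 stayed near the floor at 0.0836 and 0.149 CPM. Fam78a, the only listed relative of Fam78b, had 0.678 ± 0.207 and 1.295 ± 0.587 CPM (SD, n = 3), and its log2 fold change was 0.94 ± 0.46 (SE, edgeR adjusted p = 0.243 and an unadjusted p above 0.05, and neither DESeq2 nor limma voom called it).

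The 7 calls changed with the tumour left out. Without Ivl:BRAFV600E tumour 1, 2 or 3 the number that still passed was 1, 0 and 3. Without Ivl:BRAFV600E-SOX2LSL tumour 2 or 3 it was 4 and 5, without tumour 1 all 7 passed, and with sex as a covariate 4 passed. Dpyd was called under 12 of 13 alternatives, Kcnq5 under 11, Cdo1 under 9, Kcna7 under 8, Kcng3 under 7 and Gad2 under 6.

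**Figure D4:**
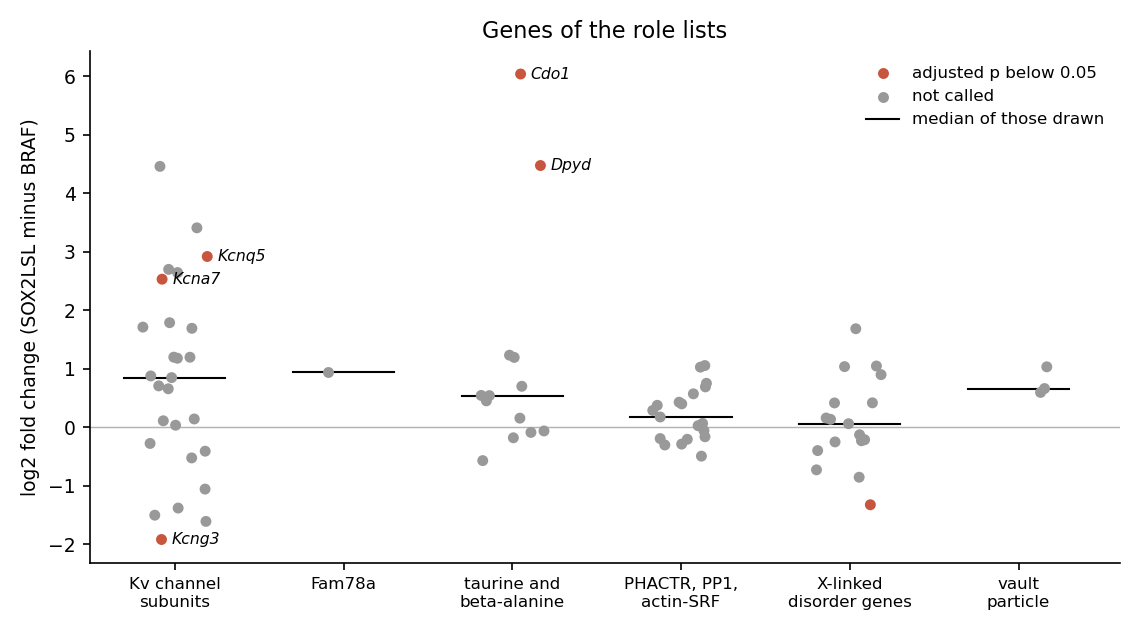
log2 fold change (Ivl:BRAFV600E-SOX2LSL minus Ivl:BRAFV600E) of 80 of the 88 tested genes in the 6 lists, leaving out 8 with a group at or under 3 reads in each tumour. Red points passed an adjusted p of 0.05 in edgeR, grey points did not, and black lines are medians of the points drawn. The taurine and beta-alanine list holds the points farthest up, Cdo1 and Dpyd, and the PHACTR list stays between -0.49 and 1.05.

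Genes beside the 6 were read next, from their annotated spans within 500 kb of each start. Around Kcnc2, Fam78b, Gadl1, Phactr1 and Nexmif, 0 of 38 tested neighbours passed edgeR's test, 9 had an unadjusted p below 0.05 against 25.7% of all genes tested, limma voom called 0 and DESeq2 called 4, among them Mgst3, Tgfbr2 and Uprt. Their median log2 fold change was 0.91 against 0.04 over all genes, or 0.03 against 0 with genes at the floor set to their bound.

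The lncRNA Gm16701 (ENSMUSG00000097823) begins 0.576 kb from the start of Fam78b on the other strand. It had 0.448, 0.615 and 0.144 CPM in the Ivl:BRAFV600E-SOX2LSL tumours, from 16, 19 and 4 reads, and 0, 0.0924 and 0 CPM in the Ivl:BRAFV600E tumours (edgeR adjusted p = 0.110). On the other side of Fam78b, Uck2 stood at 179 ± 6.40 and 172 ± 10.7 CPM (SD, n = 3, edgeR adjusted p = 0.814). Inside Phactr1, the antisense gene Gm15810 had 0 reads in each Ivl:BRAFV600E tumour and 0, 19 and 8 reads in the others (edgeR adjusted p = 0.186). Edn1 lay to its left at 372.6 kb with a mean of 4.51 CPM in the Ivl:BRAFV600E tumours and 17.7, 5.77 and 5.74 CPM in the others (edgeR adjusted p = 0.224). Its log2 fold change was 1.11, and 0.35 without Ivl:BRAFV600E-SOX2LSL tumour 1.

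The nearest tested gene to the left of Nexmif is Rlim, described above. Left of Kcnc2, Glipr1 had a mean of 0.733 CPM in the Ivl:BRAFV600E tumours and 4.08, 1.55 and 0.939 CPM in the others (edgeR adjusted p = 0.150). Its log2 fold change was 1.59, and 0.77 without Ivl:BRAFV600E-SOX2LSL tumour 1. No tested gene lay within the window to the right. Beside Gadl1, Gm48007 and Gm16142 held at most 5 reads in a tumour (edgeR adjusted p = 0.751 and 0.315).

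Mvp lies in a gene-dense region, where 6 of 58 tested neighbours passed, 5 higher and 1 lower. Maz encodes a zinc finger factor, and the nearer edge of its span, not its own start, lies 7.51 kb from the start of Mvp. Maz had 33.6, 34.7 and 35.4 CPM and then 54.7, 51.7 and 49.9 CPM, a log2 fold change of 0.59 ± 0.11 (SE, edgeR adjusted p = 0.0368). Zfp553, another zinc finger gene, rose by 0.93 ± 0.15 (SE, edgeR adjusted p = 0.0267), AI467606 by 1.47 ± 0.31 (SE, edgeR adjusted p = 0.0491) and Coro1a, an actin-binding protein of leukocytes, by 1.59 ± 0.32 (SE, edgeR adjusted p = 0.0437). Mylpf, a fast muscle myosin light chain and a member of the muscle list, rose by 4.17 ± 0.65 (SE, edgeR adjusted p = 0.0268), with 13.99, 18.2 and 3.21 CPM in the Ivl:BRAFV600E-SOX2LSL tumours. Ypel3 fell by 1.21 ± 0.22 (SE, edgeR adjusted p = 0.0343). On the other side, Cdipt had a log2 fold change of 0.23 ± 0.12 (SE, edgeR adjusted p = 0.280).

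The share of 10.3% around Mvp and 6.2% over all 96 tested neighbours compares with 3.90% of all genes. All 6 calls were lost when any Ivl:BRAFV600E tumour was left out and with sex as a covariate. Without Ivl:BRAFV600E-SOX2LSL tumour 1, 2 or 3 the number that still passed was 5, 1 and 1.

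**Figure D5:**
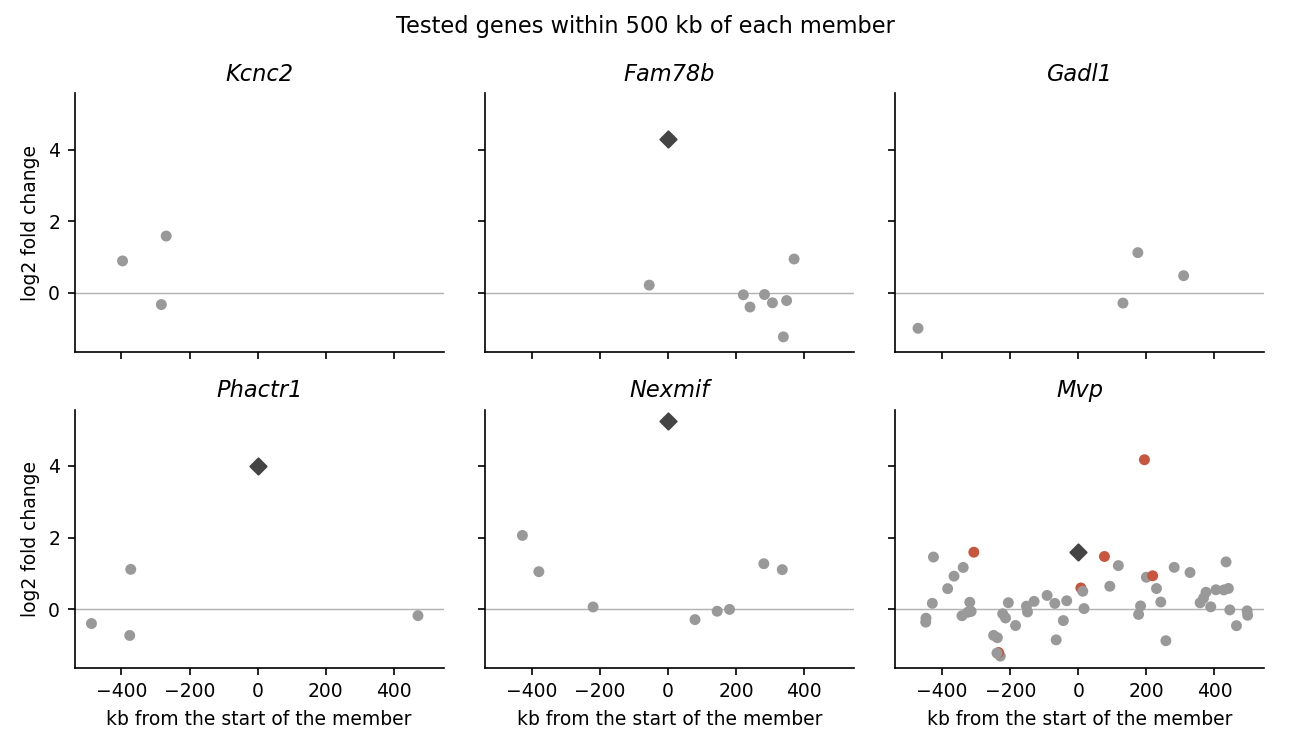
log2 fold change of 84 tested genes within 500 kb of the start of each of the 6 genes, against distance in kb from that start in the direction of the genome, leaving out genes with a group at or under 3 reads in each tumour. Red points passed an adjusted p of 0.05 in edgeR and dark diamonds mark Fam78b, Phactr1, Nexmif and Mvp themselves, while Kcnc2 and Gadl1 have only a lower bound and no diamond. Points near 0 surround the diamonds of Fam78b and Nexmif.

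Promoters are shown because the genes were chosen for a shared difference between the genotypes. Windows from 250 bases before to 50 bases after a RefSeq start were taken from RefSeq on GRCm38.p6, and for each gene the window whose start lies nearest the GENCODE start was used. Windows matched for 5 of the 6 genes. Both strands were searched for ACAATG and ACAAAG, forms of the SOX core motif, for TGANTCA, the AP-1 motif, and for TATAAA, the TATA box. Capitals mark matches, and sequences run from 5′ to 3′ on the strand of the gene.
Kcnc2, chr10:112270871-112271170, plus strand: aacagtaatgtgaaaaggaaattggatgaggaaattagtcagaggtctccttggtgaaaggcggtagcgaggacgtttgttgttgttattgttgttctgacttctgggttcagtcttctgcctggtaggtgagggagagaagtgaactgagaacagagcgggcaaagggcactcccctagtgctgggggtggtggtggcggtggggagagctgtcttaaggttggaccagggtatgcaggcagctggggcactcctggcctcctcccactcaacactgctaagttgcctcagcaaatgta
Gadl1, chr9:115909205-115909504, plus strand: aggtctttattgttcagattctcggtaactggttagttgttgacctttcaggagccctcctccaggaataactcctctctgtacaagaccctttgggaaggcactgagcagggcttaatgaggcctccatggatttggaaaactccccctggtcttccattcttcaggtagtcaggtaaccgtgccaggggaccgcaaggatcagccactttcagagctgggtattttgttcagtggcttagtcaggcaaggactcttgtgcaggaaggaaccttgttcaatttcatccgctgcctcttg
Phactr1, chr13:42680549-42680848, plus strand: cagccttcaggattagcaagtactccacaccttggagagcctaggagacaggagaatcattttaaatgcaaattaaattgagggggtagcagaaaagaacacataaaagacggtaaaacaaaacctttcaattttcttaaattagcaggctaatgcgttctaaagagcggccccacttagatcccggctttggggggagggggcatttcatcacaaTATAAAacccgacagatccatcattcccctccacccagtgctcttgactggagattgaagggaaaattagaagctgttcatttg
Nexmif, chrX:104201135-104201434, minus strand: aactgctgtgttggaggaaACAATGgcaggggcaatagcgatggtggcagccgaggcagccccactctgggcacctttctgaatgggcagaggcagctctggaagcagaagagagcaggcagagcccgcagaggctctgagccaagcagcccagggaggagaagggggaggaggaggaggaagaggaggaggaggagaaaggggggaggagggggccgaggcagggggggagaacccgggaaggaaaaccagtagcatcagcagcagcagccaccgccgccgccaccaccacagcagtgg
Mvp, chr7:127014545-127014844, minus strand: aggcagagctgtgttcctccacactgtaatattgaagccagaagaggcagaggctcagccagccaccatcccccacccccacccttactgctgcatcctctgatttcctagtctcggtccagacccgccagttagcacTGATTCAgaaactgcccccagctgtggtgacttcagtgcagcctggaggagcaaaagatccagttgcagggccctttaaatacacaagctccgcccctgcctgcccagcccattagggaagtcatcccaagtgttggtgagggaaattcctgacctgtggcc

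The 3 matches were of 3 different motifs. Nexmif held ACAATG at 231 bases before the start, a motif found in 12.6% of all 32851 RefSeq windows of this length. Mvp held the AP-1 match TGATTCA at 112 bases before the start, against 7.8% of windows. Phactr1 held TATAAA at 34 bases before the start, against 13.6% of windows. ACAAAG, present in 18.7% of windows, was in none of the 5, and the windows of Kcnc2 and Gadl1 held none of these letters. The windows ranged from 43.7% GC in Phactr1 to 64.3% in Nexmif, around a median of 52.7% over all windows. The 5 windows thus shared no match, and a match is a string of letters and not a measured binding site. Kcnc2 has 4 RefSeq windows and Phactr1 has 3, of which only the nearest was read, so their other starts are not covered.

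Other genes with the same pattern over the 6 tumours were ranked by Pearson's r between their log2 CPM and the mean of the scaled profiles of the 6 genes. The tumours form 2 separate groups, so r mainly reflects the gap between genotypes and is given as a description. EGFP came first with r = 0.999. It was followed by Gm37623, Dab1 and Trim63, all with 0 reads in each Ivl:BRAFV600E tumour. Dab1, the reelin adaptor of migrating neurons, had 0.867, 1.004 and 0.867 CPM in the Ivl:BRAFV600E-SOX2LSL tumours, at least 6.40-fold above the floor. Trim63, a ubiquitin ligase of muscle, had 1.99, 2.92 and 2.02 CPM, at least 16.2-fold above the floor.

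The remaining 6 of the 10 were Fuom, Gm12296, Cyp39a1, Gm15448, Hoxa2 and Dnpep. Fuom, a fucose mutarotase, had 0.971 and 2.62 CPM, a 2.70-fold difference of means close to that of Mvp. Cyp39a1, an oxysterol hydroxylase, had 4.48 and 10.0 CPM (2.24-fold), and Dnpep, an aminopeptidase, 22.5 and 31.0 CPM (1.38-fold). The pattern was thus found at very different sizes of change. In all, 31 tested genes had r above 0.99, among them 4 of the 6 genes and Sox2 with r = 0.994, while Fam78b and Nexmif had r = 0.987 and 0.989 against a mean they are part of.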

How the data were processed

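Bulk RNA of mouse skin tumours was sequenced from rRNA-depleted libraries. According to the submitters' processing notes and the methods of the study, the authors checked reads with FastQC 0.11.8, trimmed them with Trim Galore, aligned them to GRCm38 with HISAT2 2.1.0 and counted them per gene with featureCounts of Subread 1.6.3. The authors deposited raw read counts per gene, neither normalised nor pooled. Of 7 columns named by mouse, 6 match mice listed with genotype and sex, and 1 column was not used. The name of that column begins like those of the Ivl:BRAFV600E-SOX2LSL tumours, whereas the labels give 4 Ivl:BRAFV600E and 3 Ivl:BRAFV600E-SOX2LSL samples, so its group is uncertain. The labels do not number the columns, and p-values measure the spread between these 6 tumours.

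The 24433 genes that reached 5 reads in some tumour were tested with edgeR 4.0.16 in R 4.3.3 (TMM, quasi-likelihood, genotype alone, Benjamini-Hochberg, 0.05), planned for 4 against 3 tumours and run on 3 against 3. Log2 CPM used a prior count of 2, RPKM the GENCODE M21 exon union. Folds against a group with at most 3 reads per tumour are lower bounds, and they cover counting error only. On simulated 3 against 3 counts for 23104 genes, edgeR recovered 152 of 200 changed genes with 4.40% false calls, DESeq2 179 with 25.7% and limma voom 149 with 3.25%. Alternatives were DESeq2 1.42.0, limma 3.58.1 (voom), other scalings and filters, sex as a covariate and each tumour left out.

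The 6 genes and all lists were chosen with earlier results of these data known. Besides the 6, Sox2 and EGFP, the text names up to 4 called genes with the smallest p of each list (or its 2 most abundant genes where fewer than 2 were called), every called neighbour, the nearest tested gene on either side and the 10 genes with the most similar pattern. Markers are named to describe their lists. Some results under this rule are left out here. Figures were drawn with matplotlib.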

Additional observations from a re-analysis of the deposited data

How the results depend on the processing

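No paired analysis was possible because the columns carry no replicate numbers. All 6 genes stayed higher in the Ivl:BRAFV600E-SOX2LSL tumours under each alternative run. They were chosen for this difference in the same tumours, so the kept direction repeats the choice and is no support for it. Total-count scaling, which moved the median of all genes to 0.39, gave log2 fold changes of 4.34 for Phactr1 and 1.95 for Mvp and lower bounds of 109-fold for Kcnc2 and 46.5-fold for Gadl1. Upper-quartile scaling gave 1.49 for Mvp and 79.8-fold for Kcnc2. Leaving out 1 tumour gave 4.04 to 4.53 for Fam78b, 3.75 to 4.15 for Phactr1, 4.93 to 5.51 for Nexmif and 1.55 to 1.67 for Mvp. The evenness of Mvp and Kcnc2 depended on scaling: with total counts their SD of log2 CPM was 0.15 and 0.17 in place of 0.02 and 0.05.

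The main fit called 954 genes, of which 585 were higher in the Ivl:BRAFV600E-SOX2LSL tumours. DESeq2 called 3653, no filter 1759, sex as a covariate 228, and leaving out 1 tumour 22 to 1575. Upper-quartile scaling called 508 higher and 466 lower, limma voom 370 higher and 359 lower. The 7 calls in the lists became 19 with DESeq2, 13 with no filter, 4 with sex as a covariate and 0 to 15 when 1 tumour was left out. The 6 neighbour calls became 18, 10, 0 and 0 to 7 in the same order. Rlim turned to -0.042 under upper-quartile scaling and to -0.033 without Ivl:BRAFV600E-SOX2LSL tumour 1. In each case the cause was not tested. Depth limits Kcnc2 and Gadl1 in the Ivl:BRAFV600E tumours to an upper level of 3 reads, and 3 tumours per genotype limit every spread given.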

Other observations

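Genes with an on-off pattern like that of Kcnc2 were counted after the values had been seen. At most 1 CPM in each Ivl:BRAFV600E tumour and at least 5 CPM in each Ivl:BRAFV600E-SOX2LSL tumour was met by 32 genes, among them Kcnc2, Fam78b, Phactr1 and Nexmif. Gadl1 missed it with 4.55 CPM in tumour 3, and Mvp by its level in the Ivl:BRAFV600E tumours. The spread over the Ivl:BRAFV600E-SOX2LSL tumours ran from 3.65% of the mean to 143%, with a median of 59.9%. The choice of Kcnc2, Fam78b, Phactr1 and Nexmif used this spread, so their place in it is no result.

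Of the 32, 8 belong to the skeletal muscle list, with spreads from 51.9% (Actn2) to 143% (Myh4), 3 of them below the median. Slc9a2, a sodium-proton exchanger of epithelia, had 0.409, 0 and 0.618 CPM in the Ivl:BRAFV600E tumours and 101, 62.2 and 56.3 CPM in the Ivl:BRAFV600E-SOX2LSL tumours. Il19, a cytokine of the IL-10 family, had 0.546, 0.139 and 0.713 CPM and then 56.0, 180 and 77.2 CPM. Cldn7, a tight junction claudin, had 0.750, 0.139 and 0.665 CPM and then 84.8, 12.6 and 16.1 CPM, highest in tumour 1. These 3 genes were picked for their level after the values were seen and carry no test here.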
